A study of Mus musculus with 2 samples.

Results

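The 51 genes described here encode the ligands and receptors of 5 families that steer growing axons and migrating cells: Eph receptors and ephrins (20 genes), semaphorins with plexins and neuropilins (17), netrin-1 with its receptors (6), Slits and Robos (6), and the chemokine Cxcl12 with its receptor Cxcr4 (2). The members were listed by symbol, and all 51 were found among the 43346 annotated genes of both gene tables, where the stripped Ensembl identifier mapped to that symbol. The rule itself used no measured value, but the members were chosen with earlier results of these data known. Total RNA was sequenced from forebrain of mouse embryos at 10.5 days of development, strain B6NCrl, healthy, with both sexes pooled. Replicate 1 pooled 69 embryos and replicate 2 pooled 51 others, 10 ng of RNA was used for each, and the 2 libraries form the only group. No genotype, treatment or second stage was compared.

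Guidance receptors sit on the growth cone or the migrating cell and read cues that attract or repel. Ephrins are themselves held in the membrane, so an Eph receptor and an ephrin meet only at cell contact, and both sides can signal. Secreted class 3 semaphorins act through a neuropilin bound to an A plexin. Netrin-1 attracts through Dcc and repels through Unc5 receptors, while Slits repel through Robos. Cxcl12 directs cells that carry Cxcr4. At this stage the forebrain wall is mostly dividing neuroepithelium, and these cues also act on boundaries between regions, on blood vessels and on head mesenchyme.

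Levels are given as TPM (a share of all transcripts, adjusted for gene length and scaled to a fixed total), in replicate 1 and then in replicate 2, and ± marks the SD of the 2 libraries (n = 2). The annotated genes drew 41537304 and 38012457 expected counts (reads estimated per gene), of which the members drew 96316 and 84970. With 2 libraries an exact two-sided sign-flip test cannot go below p = 0.5, so no p-value is given. In bulk tissue, fewer cells of a type and less RNA per cell cannot be told apart. Of 5 forebrain transcription factors 5 passed 1 TPM in both libraries, and their levels summed to 258 and 252 TPM. None of 5 Hox genes of hindbrain and spinal cord did, and Hoxa4, Hoxb4 and Hoxc6 were at 0. Tissue around the brain was present: 9 mesenchyme genes summed to 504 and 499 TPM, 9 endothelial genes to 203 and 211, and 4 erythroid genes to 12762 and 9354. Which of these cells carried a given guidance transcript was not tested.

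Most of the set, which was chosen with earlier results of these data known, was present. At 1 TPM or more in both libraries, the limit used here for detection, 46 of 51 members were detected, beside 32.4% of all annotated genes and 57.3% of the 21474 protein-coding genes. Of listed genes of these families outside the set, 9 of 12 semaphorins, 1 of 2 plexins and 0 of 2 Eph receptors were detected. So were 1 of 5 netrin-like ligands, 1 of 2 netrin receptors and 1 of 1 Robo. The median member stood at 9.5 and 9.31 TPM, and the median protein-coding gene at 3.27 and 3.16. Among detected genes the order was the other way, with medians of 11 and 11.1 TPM for members and 20 and 20.3 for protein-coding genes. The members therefore sat in the middle range: 24 had a mean of at least 10 TPM, and 3 a mean of at least 50. The 5 highest, Plxnb2, Efnb1, Cxcl12, Efna5 and Epha7, held 37.7% of the members' summed level.

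The 5 members that missed the limit were receptors or secreted ligands. Epha8 was at 0.38 and 0.51 TPM, Plxna4 at 0.88 and 0.78, and Unc5d at 0.14 and 0.04, so these 3 were under 1 TPM in both libraries. Sema3e at 1.21 and 0.94 and Slit1 at 1.15 and 0.62 passed in replicate 1 only. Just inside the limit lay Sema3d at 1.29 and 1.30, Epha1 at 1.57 and 1.39 and Unc5a at 2.02 in both. The side of the limit on which Sema3e and Slit1 fall thus depends on the library. One read corresponded to about 0.0086 and 0.0095 TPM for a member of median length, and Epha8 drew 49 and 59 counts, so these low levels were measured and not blank.

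**Figure D1:**
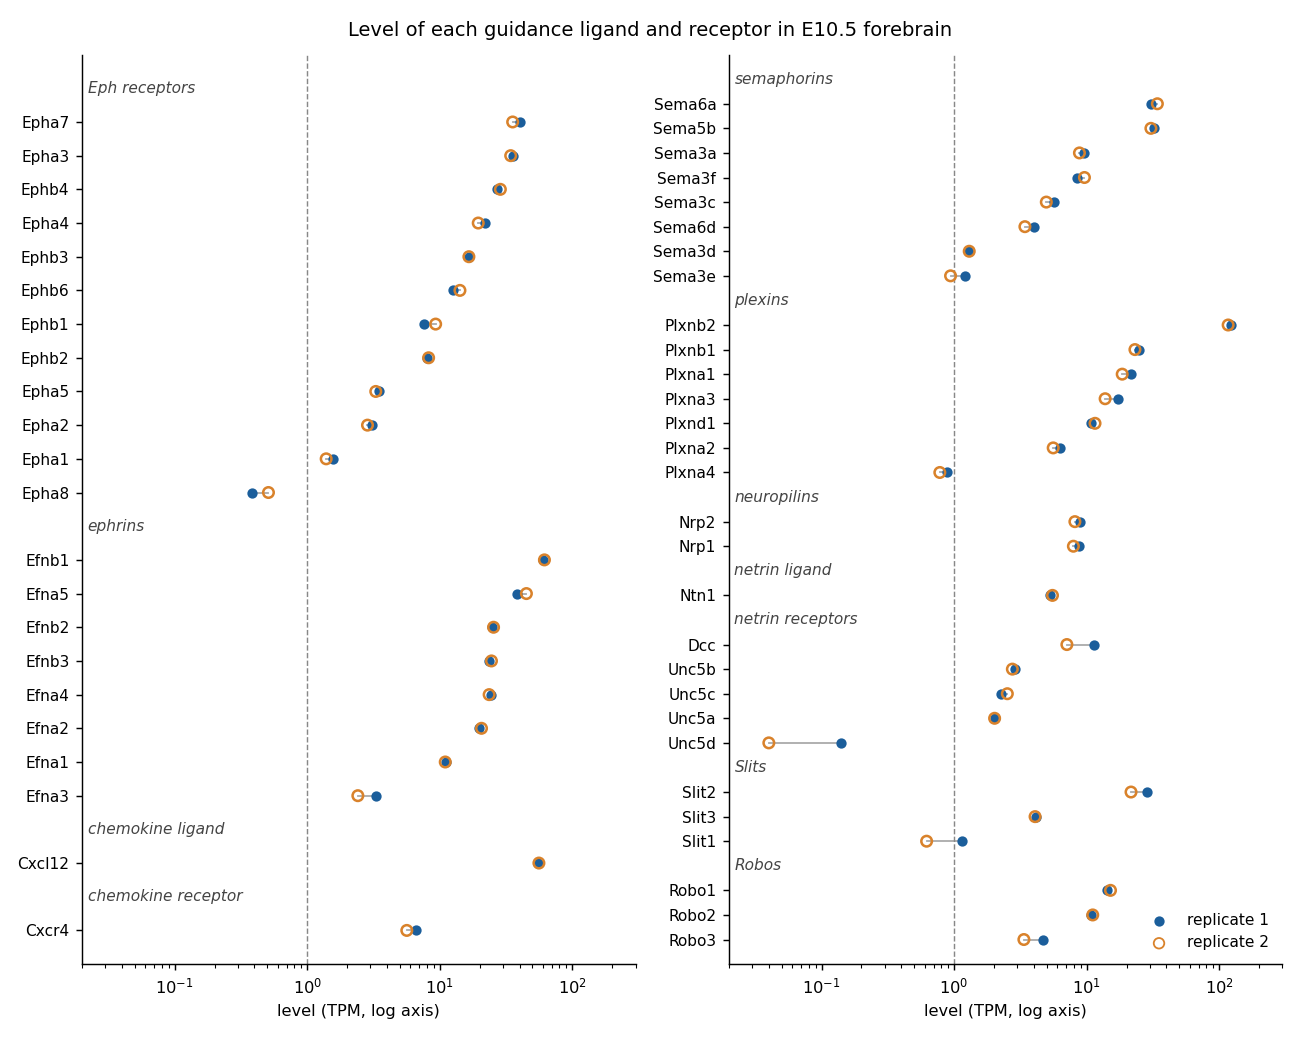
Level of each of the 51 genes in TPM on a log axis, by role, with replicate 1 as filled blue points and replicate 2 as open orange points; the dashed line is the limit of 1 TPM. Plxnb2 stands highest, at 122 and 117 TPM, and Unc5d lowest, at 0.14 and 0.04 TPM.

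Among the Eph receptors, tyrosine kinases named for their preferred class of ephrin, the A class summed to 107 and 97.3 TPM over 7 genes and the B class to 71.7 and 77 over 5. Epha7 led at 40.4 and 35.5 TPM, followed by Epha3 at 35.9 and 34.3, and the ranges of these 2 receptors overlapped between libraries. Epha7 did not lead over coding transcripts only, as given with the transcripts. Epha4, a receptor that binds ephrins of both classes, was at 21.8 and 19.5 TPM. Those 3 genes held most of the A class sum, since Epha5 (3.49 and 3.29), Epha2 (3.10 and 2.85), Epha1 and Epha8 were all under 4 TPM. Epha1 shares 236 exon bases with Zyx on the opposite strand, which stood at 67.5 and 67.4 TPM, and its expected counts of 138 and 110 were fractional, so its level is uncertain. The same holds, with weak antisense or lincRNA partners, for Ephb1, Efna3, Efna4, Plxna1 and Plxnb1; the other 45 members had whole counts, and whether reads were counted by strand is not stated.

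The B class was more even. Ephb4, known as a receptor of veins and their precursors, was highest at 27.1 and 28.7 TPM. Ephb3 was at 16.6 in both libraries and Ephb6, whose kinase domain is inactive, at 12.5 and 14.2. Ephb1 at 7.60 and 9.31 and Ephb2 at 7.98 and 8.24 could not be ordered, as their ranges overlapped. All 5 were detected, and the lowest mean in the class, 8.11 TPM for Ephb2, was above that of 4 of the 7 A receptors.

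Of the ephrins, all 8 were detected. The 5 ephrin-A genes, whose products are tied to the membrane by a lipid anchor, summed to 96.5 and 103 TPM, and the 3 ephrin-B genes, whose products cross the membrane, to 109 and 112. Efnb1, an X-linked gene with a role in setting tissue boundaries in the head, was the second highest member at 60.3 and 61.6 TPM. Efna5, a repellent for axons in several maps of the brain, followed at 38 and 45.1. Efnb2, which also marks arteries, and Efnb3, known as a midline barrier, were alike in level, at 24.6 and 25.5 TPM and at 23.7 and 24.6 TPM.

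The remaining ephrin-A genes spanned a wider range. Efna4 was at 24.3 and 23.6 TPM, Efna2 at 19.7 and 20.7, Efna1 at 11.2 and 11, and Efna3 at 3.30 and 2.41. Efna1, Efna3 and Efna4 lie side by side on chromosome 3 (GRCm38), with gaps of 32.8 kb between Efna1 and Efna3 and 10.4 kb between Efna3 and Efna4, and yet the middle gene stood at a mean of 2.86 TPM between neighbours at 11.1 and 23.9. Efna3 and Efna4 each overlap an antisense gene, and both had fractional counts. Epha8 and Ephb2 are also close, 93.4 kb apart on chromosome 4, at means of 0.445 and 8.11 TPM.

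Summed over members, ephrins exceeded Eph receptors. The 8 ligands came to 205 and 214 TPM and the 12 receptors to 178 and 174, so ligands were 1.15-fold and 1.23-fold higher, a log2 ratio of receptors over ligands of -0.25 ± 0.07 (SD, n = 2). This is the narrowest of the differences that had the same direction in both libraries. Its direction rests on the adjustment for length, since reads per gene alone gave 0.31 ± 0.08.

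Semaphorins were led by membrane-bound members. Sema6a, a transmembrane cue that binds A plexins, was at 30.7 and 34.2 TPM, and Sema5b, which carries thrombospondin repeats, at 31.9 and 30.5. These 2 overlapped between libraries and were over 3 times as high as the next semaphorin member. Over coding transcripts only the lead was smaller, with means of 20.85 TPM for Sema5b, 18.46 for Sema6a and 9.16 for Sema3a. Sema6d, the third transmembrane member, was at 4.04 and 3.42 TPM. The 5 secreted class 3 genes together reached 26.1 and 25.6 TPM. Among them Sema3a, the classic collapsing factor for growth cones, stood at 9.50 and 8.82 TPM and Sema3f, the main partner of Nrp2, at 8.44 and 9.62, with overlapping ranges. Sema3c followed at 5.68 and 4.96, and Sema3d and Sema3e were near 1 TPM. Sema3a, Sema3d and Sema3e are neighbours on chromosome 5, Sema3a 536 kb from Sema3d and 423 kb from Sema3e, and differed in level all the same.

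Plexins, the signalling receptors of semaphorins, ranged the widest. Plxnb2, at 122 and 117 TPM from 12037 and 10811 counts, was the highest of all 51 members and 5.01 times as high by mean as the next plexin. Over coding transcripts only, the means were 62.6 TPM for Plxnb2 and 21.9 for Plxnb1. Over all transcripts, Plxnb1 was at 24.6 and 23.1 TPM. The B plexins thus summed to 147 and 140 TPM, against 45.8 and 38.7 for the 4 A plexins. Of those, which pair with neuropilins, Plxna1 was at 21.5 and 18.5, Plxna3 at 17.1 and 13.8, Plxna2 at 6.30 and 5.59, and Plxna4 under the limit. Plxnd1, the receptor of Sema3e in blood vessels, was at 10.8 and 11.6 TPM. The neuropilins were level with each other, Nrp2 at 8.84 and 8.15 TPM and Nrp1, also a VEGF co-receptor, at 8.73 and 7.94.

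Plexins and neuropilins together exceeded the 8 semaphorins in both libraries, by 2.38-fold and 2.20-fold (log2 ratio 1.20 ± 0.08, SD, n = 2). The semaphorin members summed to 92.8 and 93.7 TPM. The B plexins bind class 4 semaphorins, which are not members. With 12 further semaphorins and 2 further plexins added, the log2 ratio was 0.53 ± 0.07. Plxna1 and Plxnb1 had fractional counts, and without them it was 0.86 ± 0.07.

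Netrin signalling genes were low. Ntn1, the secreted netrin, was at 5.27 and 5.52 TPM. Of its receptors among the members Dcc was the highest, at 11.3 and 7.09 TPM, Unc5b was at 2.87 and 2.75, Unc5c at 2.26 and 2.52, and Unc5a at 2.02 in both. The 4 Unc5 genes together came to 7.29 and 7.33 TPM, so nearly the whole difference between the libraries in the receptor sum, 18.6 and 14.4 TPM, lay in Dcc. Receptors exceeded the ligand 3.53-fold and 2.61-fold (log2 ratio 1.60 ± 0.31, SD, n = 2).

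For Slits and Robos no order could be given. Slit2 was at 28.4 and 21.6 TPM, Slit3 at 4.13 and 4.08, and Slit1 at 1.15 and 0.62. Robo1 was at 14.2 and 15.1 TPM, Robo2 at 10.7 and 11.1, and Robo3, the receptor of crossing axons, at 4.69 and 3.36. Robo1 and Robo2, 846 kb apart on chromosome 16, were the 2 leading Robos. The Slit sum of 33.7 and 26.3 TPM lay above the Robo sum in replicate 1 and below it in replicate 2, as Robos stood at 29.6 TPM in both (log2 ratio of Robos over Slits -0.01 ± 0.25, SD, n = 2).

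Cxcl12, a chemokine of meninges and vessels that positions early neurons, was the third highest member, at 55 and 56 TPM. Its receptor Cxcr4 was at 6.66 and 5.64 TPM from 308 and 240 counts. The ligand exceeded the receptor 8.26-fold and 9.93-fold (log2 ratio 3.18 ± 0.19, SD, n = 2), the steepest ratio of members among the 5 families. Ackr3, the second receptor of Cxcl12, which removes it from the tissue and is not a member, was at 16.4 and 18.4 TPM, above Cxcr4. A ratio with Ackr3 added was not computed, so the rank of this ratio holds for members only.

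**Figure D2:**
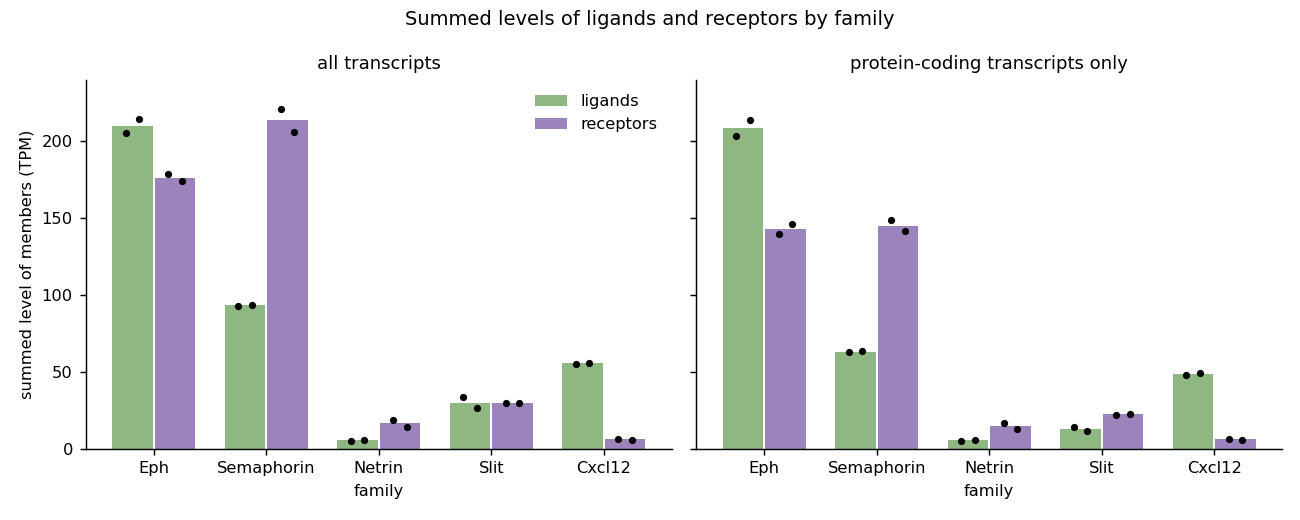
Summed TPM of ligand members (green) and receptor members (purple) of each family over all transcripts (left) and over protein-coding transcripts only (right); bars are means of the 2 libraries and points the libraries. Ephrins exceed Eph receptors in both panels, and Robos and Slits, level on the left, are apart on the right at 22.4 and 12.6 TPM.

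The transcript tables split each gene's level over its annotated transcripts, and this changed how several members read. A transcript counted as coding if its annotated type was protein-coding, short fragments included. Transcripts of the nonsense-mediated decay type did not count as coding, even where they hold an annotated coding stretch. Of 37 detected members with more than 1 transcript, all 37 had the same leading transcript in both libraries, beside 92% of 9073 detected protein-coding genes of that kind. In 4 of the 37 the leading transcript was not annotated as coding in either library, beside 746 of the 9073 genes (8.22%). These were Epha5-207 with 51.8% and 56.2% of its gene's TPM, Robo2-209 with 45.1% and 42%, Epha7-208 with 37.8% and 37%, and Slit2-207 with 33% and 36%. As annotated, all 4 hold the first exon of the gene and stop early, and whether the RNA itself ended there was not tested. Epha7-208 has 5 exons where the coding Epha7-201 has 17. Epha5-207 has 3 of 18, Slit2-207 has 6 of 38, and Robo2-209 has 2 of 26. Each is annotated as a retained intron, apart from Epha7-208, a processed transcript, and the last exon of each runs into an intron of its coding partner, by 1805 bases in Epha7-208, 453 in Epha5-207, 840 in Slit2-207 and 2756 in Robo2-209.

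Such transcripts at 1 end of the gene were not limited to these 4. In 10 of 46 detected members, beside 10.0% of the 12315 detected protein-coding genes, transcripts that are not coding and hold the first but not the last exon took at least 10% of the TPM in both libraries, and these included Epha4, Ephb2, Sema3c, Sema6a and Unc5c. In 5 others, beside 8.79% of those genes, the same held for the last exon: Ephb3, Sema5b, Plxna3, Plxnb2 and Robo3. Plxnb2-205, a transcript of 841 bases with 3 exons at the end of the gene, took 40.6% and 38.8% of the Plxnb2 level. It drew only 1020 and 838 of the gene's 12037 and 10811 counts, so its share of TPM rests on division by its short length. Coding transcripts made up less than 75% of the mean level in 15 of the 46 (32.6%), and in 20.8% of 12315 detected protein-coding genes. The medians lay closer, at 96.8% and 97.8%. Estimates of transcripts that share exons rest on the same reads, so the split is less certain than the gene's total.

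**Figure D3:**
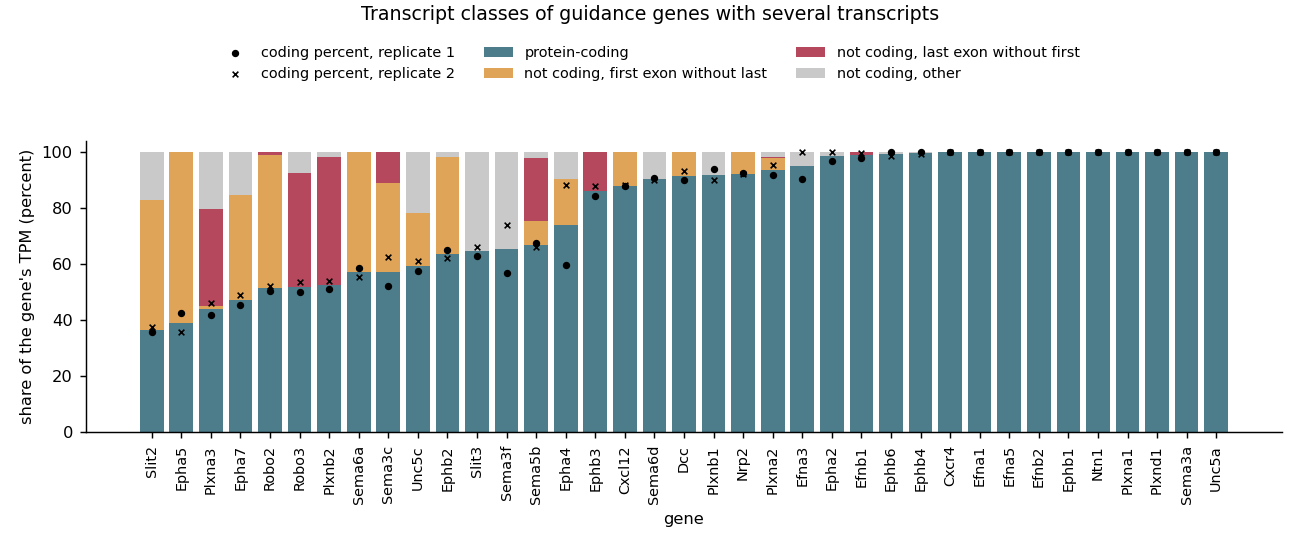
Share of each gene's TPM, in percent, by transcript class for the 37 detected members with several transcripts; bars are means of the 2 libraries, and the black circles and crosses give the coding share in replicates 1 and 2. Slit2 has the lowest coding share, 35.7% and 37.6%, and Epha4 differs most between libraries, at 59.6% and 88.2%. Epha4-205, of the nonsense-mediated decay type and so not counted as coding, has the same 986 codons as Epha4-201 and 99.8% of its bases. It was at 4.09 and 0.17 TPM with overlapping deposited intervals, so the Epha4 difference is uncertain.

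**Figure D4:**
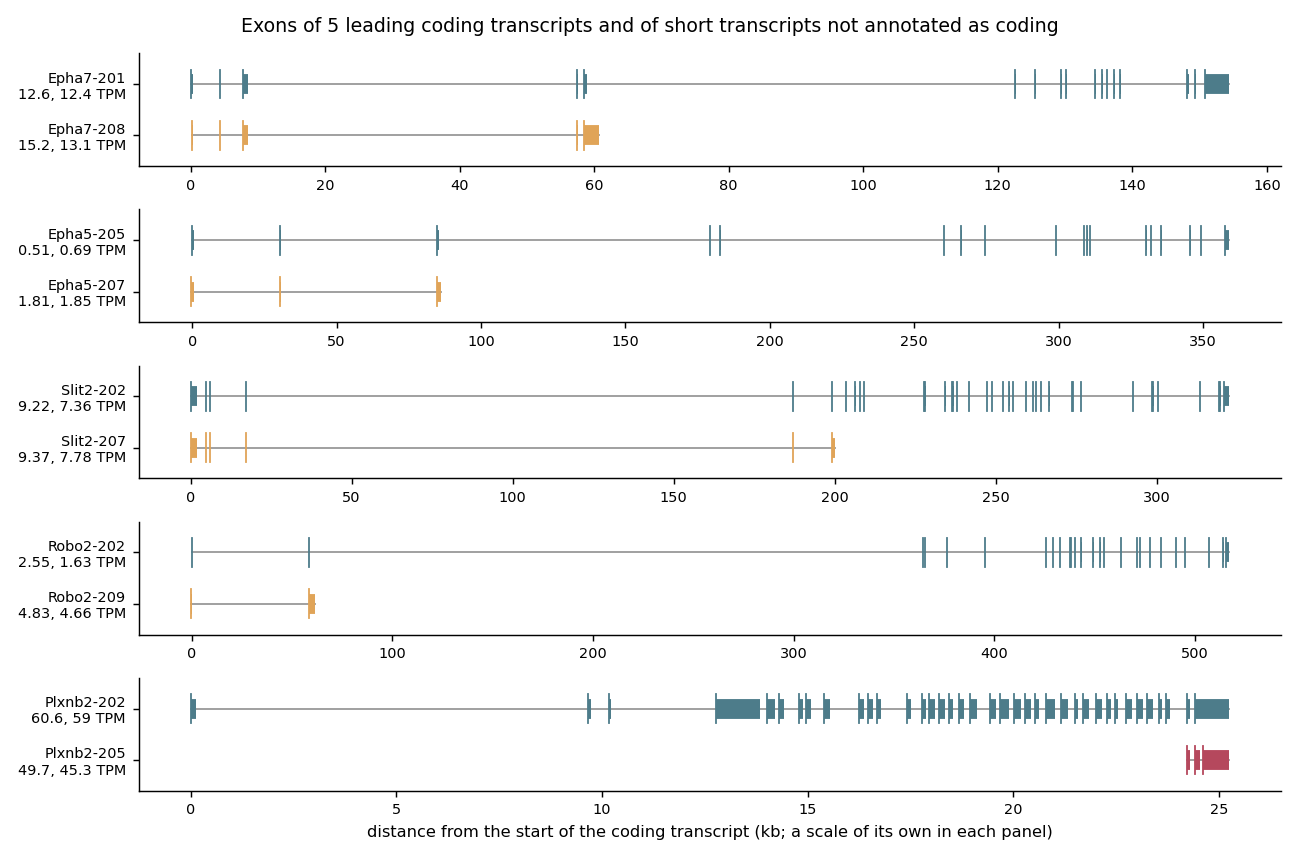
Exons of the leading coding transcript (blue) and of a short transcript not annotated as coding for Epha7, Epha5, Slit2, Robo2 (yellow) and Plxnb2 (red), by distance in kb from the start of the coding transcript, with TPM in replicates 1 and 2. The yellow transcripts cover the start of the gene and the red one only its end, from 24.2 to 25.2 kb.

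Counting coding transcripts only, Plxnb2 fell to 62.4 and 62.8 TPM, close to Efnb1 at 59.1 and 61.4, and remained first. Among the Eph receptors Epha3, at a mean of 35.1 TPM, and Ephb4, at 27.8, then stood above Epha7, which dropped to rank 15 of the members. Slit2 went from 28.4 and 21.6 TPM to 10.1 and 8.12, Epha7 from 40.4 and 35.5 to 18.3 and 17.4, and Robo2 to 5.40 and 5.80. The Slit sum became 13.9 and 11.4 TPM and the Robo sum 22 and 22.7, so on this measure Robos were 1.59-fold and 1.99-fold higher. The ephrins, which have few transcripts, hardly changed at 204 and 214 TPM, while Eph receptors came to 140 and 146, and the excess of ligands widened to 1.45-fold and 1.46-fold. On this measure 46 members still reached 1 TPM in both libraries.

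Cxcl12 (chr6:117168535-117181367, plus strand, GRCm38) shows a choice of last coding exon that alters the protein. Its 3 coding transcripts share 267 coding bases and then part, as shown by the last 30 shared bases in lower case and each transcript's own bases, stop codon included, in capitals (GENCODE M21).
Cxcl12-202: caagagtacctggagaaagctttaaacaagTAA
Cxcl12-203: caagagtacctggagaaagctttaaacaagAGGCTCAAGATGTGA
Cxcl12-201: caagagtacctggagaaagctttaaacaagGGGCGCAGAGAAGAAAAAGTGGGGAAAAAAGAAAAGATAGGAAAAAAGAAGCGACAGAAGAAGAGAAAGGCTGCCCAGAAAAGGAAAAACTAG
Cxcl12-202 ends at once, with 89 codons, Cxcl12-203 adds 4 codons to reach 93, and Cxcl12-201 adds a long tail rich in a and g to reach 119. The form of 93 codons was the most abundant, at 25.5 and 25.6 TPM or 46.4% and 45.6% of the gene. The form of 89 codons was at 16.7 and 17.5 TPM (30.3% and 31.3%), and the form with the long tail at 6.03 and 6.29 TPM (11% and 11.2%). The order was the same in both libraries. A retained intron transcript held the other 12.3% and 11.8%.

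Nrp2, on chromosome 1, also ends in more than one way. Its transcripts share 2425 coding bases, up to the stretch before the membrane, and then use either of 2 last coding exons. The last 30 shared bases stand in lower case and the first 70 of each transcript's own bases in capitals.
Nrp2-204: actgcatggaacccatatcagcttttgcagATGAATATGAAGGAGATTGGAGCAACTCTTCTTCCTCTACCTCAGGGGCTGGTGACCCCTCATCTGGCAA
Nrp2-201: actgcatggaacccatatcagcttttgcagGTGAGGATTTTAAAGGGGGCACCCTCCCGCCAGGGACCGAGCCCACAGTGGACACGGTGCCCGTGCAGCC
Nrp2-204, of 909 codons, held 43.3% and 37.6% of the gene's TPM, and Nrp2-201, of 906 codons, 28% and 32.7%. Their levels were 3.83 and 3.06 TPM against 2.48 and 2.67. The authors' posterior mean TPM was 2.53 for both in replicate 2, and the deposited intervals of the 2 overlapped in both libraries. These 2 transcripts could therefore not be ordered. Nrp2-202, at 1.27 and 0.97 TPM, has the coding end of Nrp2-204, and Nrp2-205, at 0.61 and 0.68, that of Nrp2-201. Levels were not summed by last coding exon, so the endings were not ordered either. Both endings of this co-receptor were present in the tissue.

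Sequence around the gene start was described for the 42 members with a RefSeq promoter window (GRCm38.p6, 250 bases before to 50 after the start). For each member 1 window was taken, that with the largest share of the gene's TPM starting within 100 bases in replicate 1. For Nrp1, Sema3d and Slit3 that share was 0 in both libraries, and for Sema6d it was 9.41% and 2.63%. Such windows need not hold the start used in these libraries. Ties went to the window with the most CG dinucleotides (the letters CG, which read the same on both strands). The median member window held 22.5 CG, against 7 over all 32851 windows. Those windows were not picked in this way or limited to detected genes, so the comparison is not of like sets. At least 15 CG were present in 31 of 42 member windows (73.8%) and in 34.6% of all windows. The TATAAA hexamer, on either strand, was in 3 of 42 (7.14%) and in 13.6% of all: Cxcr4, Efnb2 and Slit2. In 21 windows, at least 90% of the gene's TPM in both libraries came from transcripts starting within 100 bases, and their CG count ran from 10 to 56. Across the 21 windows the rank correlation of CG count and mean TPM was -0.08, given as a description. These 3 windows show the spread, with CG in capitals.
Epha8 (chr4:136956767-136957066, minus strand): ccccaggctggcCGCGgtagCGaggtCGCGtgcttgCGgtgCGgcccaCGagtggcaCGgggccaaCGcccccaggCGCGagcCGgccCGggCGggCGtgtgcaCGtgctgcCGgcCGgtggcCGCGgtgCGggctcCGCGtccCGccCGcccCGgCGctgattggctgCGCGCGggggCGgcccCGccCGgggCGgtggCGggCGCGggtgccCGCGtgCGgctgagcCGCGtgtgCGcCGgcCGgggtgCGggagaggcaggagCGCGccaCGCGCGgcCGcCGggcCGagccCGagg
Efna4 (chr3:89337979-89338278, minus strand): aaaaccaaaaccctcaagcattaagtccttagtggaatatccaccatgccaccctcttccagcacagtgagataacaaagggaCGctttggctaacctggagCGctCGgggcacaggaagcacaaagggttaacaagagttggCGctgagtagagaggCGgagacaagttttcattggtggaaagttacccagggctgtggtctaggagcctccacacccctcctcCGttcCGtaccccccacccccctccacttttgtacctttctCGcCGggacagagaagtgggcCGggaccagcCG
Cxcr4 (chr1:128592250-128592549, minus strand): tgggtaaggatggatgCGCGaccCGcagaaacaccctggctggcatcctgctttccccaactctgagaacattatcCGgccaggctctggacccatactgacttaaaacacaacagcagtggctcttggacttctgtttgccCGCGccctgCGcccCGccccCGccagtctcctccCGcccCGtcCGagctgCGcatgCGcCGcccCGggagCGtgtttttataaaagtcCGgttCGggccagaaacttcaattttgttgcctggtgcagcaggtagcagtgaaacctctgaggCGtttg
Epha8 had 56 CG and the second lowest level of all members, Efna4 had 11 CG at a mean of 23.9 TPM, and Cxcr4 had 20 CG and a tataaa run at a mean of 6.15 TPM.

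The pools differed little. After scaling of the counts by TMM (trimmed mean of M values), the median member ratio of replicate 2 over replicate 1 was -0.08 on the log2 scale, and that of all 17174 genes with a mean count of at least 10 was -0.002. Past 2-fold lay 1 member, Unc5d, beside 3.28% of those genes. Past 1.5-fold, a limit chosen after the data were seen, 3 members were lower in replicate 2 (5.97% of genes) and 0 were higher (3.34% of genes). The 95% exact binomial interval of the counts, which covers counting error only, included 1 for 26 members, lay below 1 for 19 (15.7% of the 17174 genes) and above 1 for 6 (15.2% of genes). The interval is narrower for a gene with more counts, so these shares also depend on the level. At a mean count of 100 or more, the median absolute log2 ratio was 0.113 for 49 members and 0.077 for 12580 genes. Among genes past that count, members thus differed somewhat more between the pools.

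The 3 genes past 1.5-fold, a share of the members close to that of all genes, were Unc5d, Slit1 and Dcc. Unc5d drew 34 and 8 counts, a level 3.87-fold lower in replicate 2 (interval 1.76 to 9.67), at under 0.2 TPM in both libraries. Slit1, with 162 and 83 counts, was 1.78-fold lower (1.35 to 2.34). Dcc, with 1533 and 873 counts, was 1.60-fold lower (1.47 to 1.74), and 4.75% of the tested genes had a ratio as low. Robo3 came next, with 474 and 304 counts and a ratio 1.42-fold lower (1.23 to 1.64).

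Among the 6 members whose interval lay wholly above 1, the ratio was at most 1.22-fold (1.09 to 1.37), for Sema3f. Ephb1 at 1.17-fold (1.07 to 1.28) and Efna5 at 1.17-fold (1.12 to 1.22) followed, and Ntn1, Sema6a and Ephb4 were nearer 1. Slit2 was 1.20-fold lower in replicate 2 (1.14 to 1.27). Robo2 was lower by counts, 1403 and 1116, and not by TPM, 10.7 and 11.1.

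Other genes moved in the same direction as Dcc, Slit1 and Robo3. All 7 of 7 neuron markers were lower in replicate 2, and their levels summed to 424 and 330 TPM, with a median log2 difference of -0.35 and a range from -0.91 to -0.19. Dcx, a marker of young neurons, was at 14.6 and 8.32 TPM. The neuroepithelium list differed less, with a median of -0.06, and summed to 1371 and 1272 TPM; most of that difference was Fabp7, at 194 and 120 TPM. All 5 optic markers were higher in replicate 2, summing to 18.1 and 45.7 TPM, and all 4 erythroid markers were lower. The part of any of these lists in the members' ratios was not tested.

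**Figure D5:**
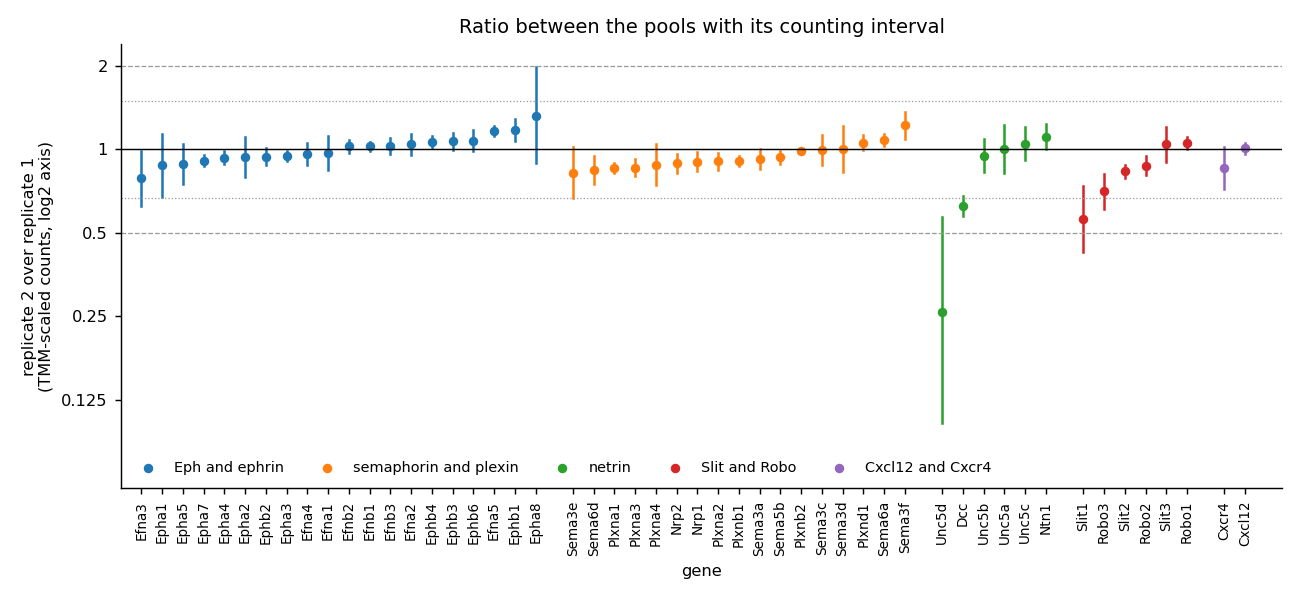
Ratio of replicate 2 over replicate 1 for each gene, from TMM-scaled counts on a log2 axis, with its 95% exact binomial interval of counting error; dashed lines mark 2-fold and dotted lines 1.5-fold. Unc5d, Slit1 and Dcc lie below the lower dotted line, and no gene lies above the upper one.

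Other genes of the pathway came from a list of 97, of which 96 were matched. Of these, 83 were detected, beside 32.4% of all annotated genes and 57.3% of protein-coding genes. The same shares stand beside the counts by class below. This list too was chosen with earlier results known. The further semaphorins were led by the class 4 genes Sema4c at 17.8 ± 1.08 TPM, Sema4b at 12.8 ± 0.40 and Sema4d, a ligand of B plexins, at 6.95 ± 0.21. The 2 further Eph receptors were not detected, Epha10 at 1.10 and 0.90 TPM and Epha6 at 0.25 and 0.31. Of the plexins, Plxnc1 was at 1.66 ± 0.08 and Plxnb3 at 0.015 ± 0.007. Netrin-like ligands were low, with Draxin at 1.61 ± 0.35 TPM and detected, and Ntng1, Ntng2, Ntn4 and Ntn5 at means from 1.16 down to 0.43 and not.

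Neo1, a receptor of netrins and repulsive guidance molecules, was at 17.5 ± 0.28 TPM, above Dcc, while Dscam was at 0.055 ± 0.021. Robo4, an endothelial Robo, was at 4.40 ± 0.74. Flrt3, an adhesion protein that binds Unc5 and Robo receptors, was at 54 ± 1.92 TPM, ahead of Rgma at 13.1 ± 0.99 and Flrt2 at 12.7 ± 0.42. Cxcl14 was at 2.12 ± 0.23. Of the adhesion co-receptors, Ncam1 was at 19.9 ± 0.62, Nrcam at 8.19 ± 0.83 and Alcam at 5.09 ± 0.61.

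Genes that carry the signal inside the cell were all present, 37 of 37, led by the GTPase Cdc42 at 485 ± 6.72 TPM, the G protein subunit Gnai2, used by Cxcr4, at 449.9 ± 1.77 and Rhoa at 232 ± 18.2. The 5 collapsin response mediators, which act below semaphorins on the cytoskeleton, were also all detected, with Dpysl2 at 356 ± 11.3, Crmp1 at 83.7 ± 4.94 and Dpysl3 at 71 ± 7.40. The 6 genes of the protease list, linked to cleavage of guidance proteins, were all detected, with Adam10 at 52.8 ± 2.07 and Adam17 at 33.8 ± 2.42. The 10 heparan sulfate and proteoglycan genes were also all detected; heparan sulfate helps Slit to bind Robo. They were led by Gpc3 at 202 ± 11.4, Sdc1 at 116 ± 4.43 and Gpc1 at 82.7 ± 1.94.

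Of the 96, past 1.5-fold between the pools lay 4 lower in replicate 2, beside 5.97% of all tested genes, and 1 higher, beside 3.34%. Named after their values were seen, the 4 were the axonal adhesion genes L1cam (4.34 and 2.53 TPM), Cntn2 (4.54 and 2.30) and Chl1 (0.82 and 0.12), and Dscam, which drew only 14 and 8 counts. The higher one was Ntn5, at 0.32 and 0.54 TPM from 13.4 and 20.4 counts.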

How the data were processed

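The authors deposited a gene and a transcript table per library, on assembly mm10 with annotation M4 per the deposited notes; no source used here names the aligner or quantification tool. Expected counts are the authors' estimated reads per gene, often fractional. The deposited TPM and FPKM values are adjusted for length by the authors, spike-ins included in the total. The transcript tables give, per the file headers, each transcript's percent of its gene. The extraction protocol and spike-ins are per the labels.

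Symbols came from the gene name table; transcript types, exons and coordinates from GENCODE M21 on GRCm38, and 233 of the members' 234 transcripts matched. Counts, rounded for the factors, were scaled by TMM (edgeR 4.0.16, R 4.3.3), 0.5 was added for calls, and comparison required a mean of 10 counts. The over-dispersion between pools was 6.59% as a coefficient of variation over 16637 genes. Python 3.11.15, pandas 2.3.3, scipy 1.17.1 and matplotlib 3.10.9 served for everything else. Ratios between pools and the 2-fold calls were tested on simulated counts. The ratios of receptors and ligands were not. DESeq2 1.42.0 gave alternative size factors.

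The members and lists were chosen with earlier results of these data known. All 51 members are named; of other pathway genes, the 3 highest of each class and, where fewer than 0.5 of a class were detected, the 3 lowest. A result under this rule is not reported here. The labels call the 2 pools biological replicates; each was 1 library, so pool and library cannot be told apart. Ntn3 and 9 members' promoter windows were not used here.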

Additional observations from a re-analysis of the deposited data

How the results depend on the processing

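Of 61 alternatives over 9 results, 50 moved a log2 ratio by less than its SD or a count by no more than 1.5-fold. Some of the 50 could not have come out otherwise. Leaving out 1 of 2 libraries always moves a mean log2 ratio by less than the SD. Leaving out members under 1 TPM in both libraries dropped no gene for Robos over Slits or Cxcl12 over Cxcr4, which repeated the main value. Without division by length, log2 ratios were 0.31 for Eph receptors over ephrins, the opposite direction, and 1.64 for plexins and neuropilins over semaphorins, 0.43 for Robos over Slits and 3.96 for Cxcl12 over Cxcr4. Over coding transcripts only, they were -0.54 for Eph receptors over ephrins and 0.83 for Robos over Slits. With all family genes added, which was not done for Cxcl12 over Cxcr4, plexins and neuropilins over semaphorins gave 0.53. Without members of fractional counts, a choice made after the data were seen, that ratio was 0.86 and Eph receptors over ephrins -0.14. At a mean count of 50 or more, 0 members were past 2-fold between pools, since Unc5d was left out, and at 1.5-fold, also chosen later, 3 were.

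Leaving out each library in turn gave 46 to 48 members detected and 84 to 85 other pathway genes. The log2 ratios ran from -0.30 to -0.20 for Eph receptors over ephrins, 1.14 to 1.25 for plexins and neuropilins over semaphorins, 1.39 to 1.82 for netrin receptors over Ntn1, -0.18 to 0.17 for Robos over Slits and 3.05 to 3.31 for Cxcl12 over Cxcr4. Members detected ranged from 34 at 5 TPM to 50 at 10 counts. By posterior mean TPM, 36 of 37 leading transcripts matched. No paired analysis was possible because there is 1 group. Depth limits Unc5d and Epha8 most, and the cause of each shift beyond its construction was not tested.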
